A study of Homo sapiens with 9 samples.

Results

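The genes described here build the machinery that carries newly made proteins into the endoplasmic reticulum (ER) and attaches sugar chains to them. They are 35 of the 58735 genes of the count table, chosen by gene symbol from a list drawn up with earlier results of these data known: 7 genes of the signal recognition particle (SRP) and its receptor, 7 of the translocon, 4 of the translocon-associated protein (TRAP) complex, 5 of signal peptidase and 12 of oligosaccharyltransferase (OST). They were read in RNA-seq of VCaP cells, an established androgen-sensitive line of prostate cancer cells, transfected with siCtrl, a control siRNA, or with siCDO1A or siCDO1C, siRNAs against CDO1, which encodes cysteine dioxygenase, an enzyme that oxidises cysteine. There were 3 libraries per siRNA, labelled as biological replicates, and all 9 came from cells with the genotype WT that grew in medium with 10% fetal bovine serum and 2 nM dihydrotestosterone (DHT). The model is thus 1 cell line with a transient loss of CDO1 mRNA, and since the labels do not say how the replicates were kept apart, p-values measure the spread between these libraries, part of which may be technical. The study asked which pathways change when CDO1 is lost, and the comparisons here are siCDO1A with siCtrl, siCDO1C with siCtrl, and the siRNAs with each other.

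A protein bound for the ER starts with a hydrophobic signal sequence that SRP recognises on the ribosome and brings to the SRP receptor. The ribosome then docks on the SEC61 channel, signal peptidase cuts off the signal sequence, and OST transfers a preassembled glycan to asparagine residues of the chain as it enters the lumen. Luminal prostate cells secrete large amounts of such glycoproteins, and many genes of this route are known targets of the unfolded protein response (UPR), which raises the folding capacity of the ER.

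Because the study turned on the UPR, the promoters of the genes were read for its known DNA elements. Promoter sequences from RefSeq (GRCh38.p14), 250 bases before to 50 bases after a gene's start, were listed for 30 of the 35 genes in 38 windows, with none listed for RPN1, SPCS1, STT3B, TRAM1 and TUSC3. On both strands, no window of these genes held the ER stress element (CCAAT and CCACG, 9 bases apart), found in 0.0769% of all 35116 promoter windows, or its second form (ATTGG and CCACG, 1 base apart), found in 0.0541%. The core of the UPR element, TGACGTGG, was in 4 of the 38 windows (10.5%), against 0.729% of all windows. Read on the other strand, this core begins with CCACG, the letters that both ER stress elements share, so the searches overlap in part. The stretches around the 4 matches are shown because they are the places where the genes carry this sequence, each read 5′ to 3′ on the strand opposite to its gene, with the core in capitals.
SSR3, chr3:156554148-156554177, + strand: agtttccttgcTGACGTGGctgttatcaga
SEC62, chr3:169966779-169966808, - strand: ccggttccctcTGACGTGGagcgaggaggg
SRP19, chr5:112861164-112861193, - strand: tctctagtctcTGACGTGGcatgaagactt
SSR4, chrX:153794528-153794557, - strand: tctggcagcacTGACGTGGcccctccctga
The core lay 41 to 34 bases before the start of SSR3, 17 to 10 before that of SEC62, 112 to 105 before that of SRP19 and 129 to 122 before that of SSR4. These starts are those of the RefSeq windows, and the gene spans given with the counts begin further upstream. By those spans the cores of SSR3, SEC62 and SSR4 lie inside the gene, and that of SRP19 lies before it. A match is a description of the sequence, not evidence that a factor bound there.

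Levels are given as CPM, a gene's counts relative to the library's summed counts over the genes tested, scaled between libraries with TMM. CDO1 itself was at 14.2, 14.1 and 13.7 CPM in the siCtrl libraries, at 3.28, 2.05 and 2.18 with siCDO1A and at 1.1, 2.81 and 1.16 with siCDO1C. This was a reduction of 82.1% ± 4.83 (SD, n = 3) and of 87.9% ± 6.98 (SD, n = 3), with no overlap (exact permutation test, two-sided, p = 0.1 each, the smallest that 3 against 3 libraries allow). The libraries held between 12061295 and 16073698 counts. All 10 luminal markers were detected, with summed levels of 6256 to 6419 CPM (siCtrl), 7100 to 7482 (siCDO1A) and 6645 to 6814 (siCDO1C), and their part in the results was not tested. The basal, fibroblast, endothelial and leukocyte lists, of 3 genes each, each summed to at most 4.76 CPM in any library, and the endothelial marker CDH5 was at 0 in all 9.

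siCDO1C replicate 2 stood apart from the other siCDO1C libraries for these genes. It was the highest library of its group for 26 of the 35 genes (74.3%), whereas it was the highest for 41% of all 15555 genes tested. Over the mean of replicates 1 and 3, its median log2 level was 0.15 for the 35 genes and 0.01 for all genes tested. The signal peptidase genes (median 0.31) and the TRAP genes (0.27) deviated more than the translocon (0.10), SRP (0.09) and OST (0.08) genes, with SPCS1 at 0.50, OSTC at 0.47, SRP9 at 0.42 and SEC11C at 0.40. STT3A lay the other way, at -0.13. This library was singled out after its values were seen, and the counts, list medians, complex sums and calls with siCDO1C that change without it are given below both ways.

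**Figure D1:**
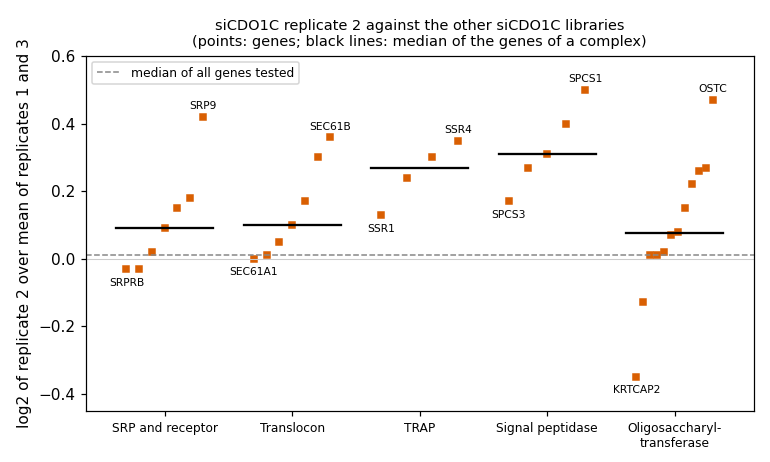
The log2 of the level in siCDO1C replicate 2 over the mean of siCDO1C replicates 1 and 3 (vertical axis) is plotted for each gene (squares) by complex (horizontal axis), with the median of each complex as a black line and the median of all genes tested as a dashed line. The signal peptidase (0.31) and TRAP (0.27) medians lie well above the dashed line at 0.01, and KRTCAP2, at under 3 CPM in every library, is the lowest point.

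Most of the 35 genes had slightly lower values with each siRNA than with siCtrl, and the genes that passed the test were spread over the translocon, TRAP, signal peptidase and OST, with none in SRP or its receptor. With siCDO1A, 1 gene (SEC63) was higher and 7 (SEC62, TRAM1, SSR1, SSR3, SPCS3, OSTC and MAGT1) were lower by edgeR's quasi-likelihood test at a Benjamini-Hochberg adjusted p of at most 0.05 over all genes tested. With siCDO1C, 2 genes (SEC61A2 and SEC63) were higher and 7 (TRAM1, SSR3, SPCS3, RPN1, DDOST, STT3B and MAGT1) were lower. All 35 genes had enough counts to be tested. The 8 genes with siCDO1A are 22.9% of the list, where 14.8% of all genes tested passed (7.37% higher, 7.48% lower), and the 9 genes with siCDO1C are 25.7%, where 4.77% of all genes passed (2.27% higher, 2.5% lower). The median log2 fold change of the list was -0.07 with siCDO1A, against 0.01 for all genes tested, and -0.12 with siCDO1C, against -0.00. Below 0 were 26 of the 35 genes with siCDO1A, against 48.1% of all genes, and 27 with siCDO1C, against 50% of all genes. These are descriptions of the list beside all genes, and in bulk RNA fewer cells of a type and less RNA per cell cannot be told apart.

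The counts moved when single libraries were left out, and so did the share of all genes that passed. Such a fit has fewer libraries, and its lower power was not told apart from the part of the library left out. With siCDO1A, 4 of the 35 genes (11.4%) passed without siCtrl replicate 1 or without siCtrl replicate 2, where 8.67% and 8.31% of all genes passed. Only 3 (8.57%) passed without siCDO1A replicate 1 or 2, a share at or below that of all genes (9.12% and 8.59%). Without siCtrl replicate 3 the count stayed at 8 (22.9%, where 13.1% of all genes passed). Without siCDO1A replicate 3 it rose to 11 (31.4%, where 22.2% of all genes passed). With siCDO1C, 19 genes (2 higher, 17 lower) passed without siCDO1C replicate 2, or 54.3% where 13.3% of all genes passed, and the median log2 fold change was then -0.19, with 30 genes below 0. Without siCtrl replicate 1, siCtrl replicate 2 or siCDO1C replicate 3 there was 1 gene (2.86%), where 1.79%, 1.75% and 3.51% of all genes passed. Without siCtrl replicate 3 or siCDO1C replicate 1 there were 2 (5.71%), where 1.69% and 2.37% of all genes passed. The labels give the replicate number as a batch shared by the 3 siRNAs, and with that number as a block in the fit the counts were 3 with siCDO1A (SEC63, TRAM1 and SSR3) and 4 with siCDO1C (SEC63, TRAM1, SSR3 and SPCS3). With the block the list's share with siCDO1A (8.57%) was that of all genes (8.73%), and with siCDO1C it was 11.4%, where 4.08% of all genes passed.

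**Figure D2:**
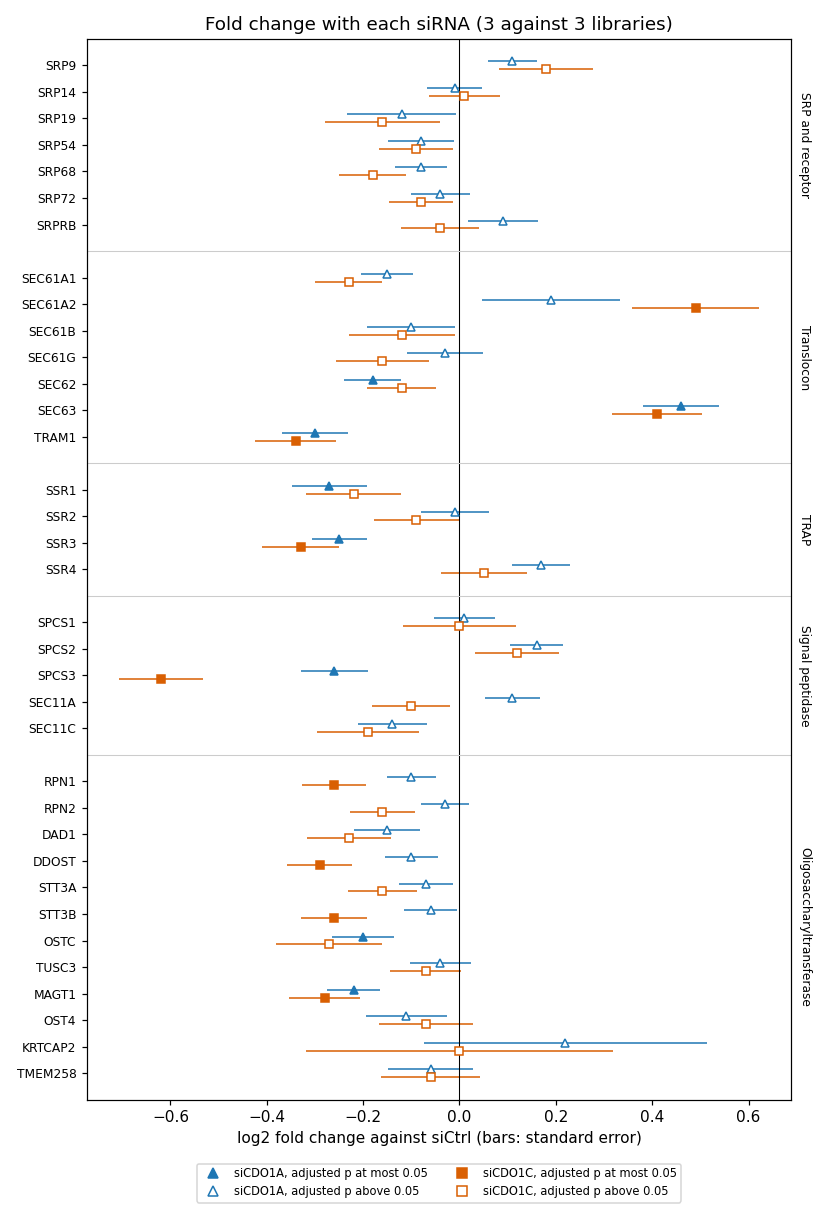
Log2 fold change against siCtrl (horizontal axis; bars, standard error) of each of the 35 genes with siCDO1A (triangles) and siCDO1C (squares), from 3 against 3 libraries, with genes grouped by complex. Filled symbols passed an adjusted p of 0.05: SEC63 lies to the right with both siRNAs, and SPCS3 with siCDO1C lies furthest to the left, at -0.62.

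With both siRNAs in the same direction, 5 genes changed: SEC63 rose and TRAM1, SSR3, SPCS3 and MAGT1 fell. They are 14.3% of the list, where 3.62% of all genes tested passed in this way (1.9% higher, 1.72% lower). In GRCh38 they lie at chr6:107867756-107958189 (SEC63), on chromosome 8 (TRAM1), at chr3:156540140-156555184 (SSR3), at chr4:176319964-176332245 (SPCS3) and at chrX:77826364-77895593 (MAGT1), all on the minus strand except SPCS3. Both comparisons use the same siCtrl libraries, so they are not independent of each other. With the replicate block 3 of the 5 genes passed with both siRNAs (SEC63, TRAM1 and SSR3), where 2.67% of all genes did. Without siCDO1C replicate 2 there were 7 (SSR1 and OSTC in addition), where 6.66% of all genes passed, and without siCDO1A replicate 1 or 2 there were 3 (3.03% and 2.94% of all genes). Without siCDO1C replicate 1 or siCtrl replicate 3 there were 2 (1.96% and 1.34%), without siCDO1C replicate 3 or siCtrl replicate 1 there was 1, SPCS3 (2.74% and 1.41%), and without siCtrl replicate 2 there were 0 by edgeR (1.37%), with each gene's adjusted p given below.

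SEC63 encodes a membrane protein of the translocon whose J domain brings the chaperone BiP to the channel. It was at 98.9, 99.1 and 79.7 CPM with siCtrl, at 125, 117 and 138 with siCDO1A and at 112, 129 and 129 with siCDO1C. All 6 libraries of the siRNAs against CDO1 lay above the 3 siCtrl libraries. The log2 fold change was 0.46 ± 0.0792 (SE, edgeR adjusted p = 0.000499) with siCDO1A and 0.41 ± 0.0937 (SE, edgeR adjusted p = 0.0214) with siCDO1C. Within batches 1, 2 and 3 it was 0.34, 0.24 and 0.79 with siCDO1A, and 0.18, 0.38 and 0.70 with siCDO1C, so that the rise was largest in batch 3, where the siCtrl library was the lowest. With siCDO1A SEC63 passed without any 1 library (edgeR adjusted p at most 0.00274). With siCDO1C it did not pass without siCDO1C replicate 3 (adjusted p = 0.0599) or without siCtrl replicate 1 (0.052), 2 (0.0601) or 3 (0.13).

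TRAM1 encodes a membrane protein beside the channel that contacts the entering chain. Its level was 232, 218 and 191 CPM with siCtrl, 173, 162 and 185 with siCDO1A and 158, 183 and 167 with siCDO1C, again with no overlap. It fell by 0.30 ± 0.0679 on the log2 scale with siCDO1A (SE, edgeR adjusted p = 0.00498) and by 0.34 ± 0.0846 with siCDO1C (SE, edgeR adjusted p = 0.0323). In batches 1, 2 and 3 the differences were -0.42, -0.43 and -0.04 with siCDO1A, and -0.55, -0.25 and -0.19 with siCDO1C. The result with siCDO1A did not pass without siCDO1A replicate 2 (adjusted p = 0.0508) or siCtrl replicate 1 (0.0538), and that with siCDO1C did not pass without siCDO1C replicate 1 (0.157) or 3 (0.0713), or without siCtrl replicate 1 (0.227) or 2 (0.166).

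SSR3, the gamma subunit of TRAP, one of the genes with the UPR element core shown above, was at 165, 168 and 155 CPM with siCtrl, at 132, 138 and 140 with siCDO1A and at 119, 145 and 126 with siCDO1C. The groups did not overlap, and siCDO1C replicate 2 was the highest of the 6 libraries with less CDO1. The gene fell by 0.25 ± 0.0571 on the log2 scale with siCDO1A (SE, edgeR adjusted p = 0.00509) and by 0.33 ± 0.0807 with siCDO1C (SE, edgeR adjusted p = 0.03). Each batch gave a negative difference, from -0.32 to -0.15 with siCDO1A and from -0.47 to -0.21 with siCDO1C. With siCDO1A it passed without any 1 library (adjusted p at most 0.0457). With siCDO1C it passed only without siCDO1C replicate 2 (adjusted p = 6.0e-06), and the adjusted p was 0.161 without siCDO1C replicate 1, 0.0815 without replicate 3, and 0.155, 0.169 and 0.0803 without siCtrl replicates 1, 2 and 3.

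SPCS3 encodes the glycosylated accessory subunit of signal peptidase. Its level was 73.6, 78.8 and 73.3 CPM with siCtrl, 62.4, 59 and 66.8 with siCDO1A and 43.9, 53 and 50.5 with siCDO1C. The 3 groups did not overlap one another, with siCDO1A in between. The fall was 35.1% with siCDO1C (log2 fold change -0.62 ± 0.0868, SE, edgeR adjusted p = 0.000778) and 16.5% with siCDO1A (-0.26 ± 0.0696, SE, edgeR adjusted p = 0.0144). The former passed without any 1 library, replicate 2 included (adjusted p at most 0.0114), and in each batch the difference was between -0.75 and -0.54. The latter did not pass with the replicate block (edgeR adjusted p = 0.0645), nor without siCDO1A replicate 1 (0.0543), siCDO1A replicate 2 (0.0936) or siCtrl replicate 2 (0.0934), and in the batches it was between -0.42 and -0.13.

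MAGT1, an oxidoreductase subunit of the OST form that holds STT3B, was at 194, 183 and 189 CPM with siCtrl, at 156, 160 and 169 with siCDO1A and at 144, 167 and 158 with siCDO1C. Both groups lay below siCtrl in every library. The log2 fold change was -0.22 ± 0.0559 with siCDO1A (SE, edgeR adjusted p = 0.00944) and -0.28 ± 0.074 with siCDO1C (SE, edgeR adjusted p = 0.0414). With the replicate block the edgeR adjusted p was 0.0613 and 0.0749, although each batch gave a negative difference (-0.32 to -0.16 and -0.43 to -0.13). The result with siCDO1A did not pass without siCDO1A replicate 1 (adjusted p = 0.0614) or siCtrl replicate 1 (0.0638). With siCDO1C it passed only without siCDO1C replicate 2 (0.0001), and the adjusted p was 0.2 and 0.0826 without siCDO1C replicates 1 and 3, and 0.231, 0.143 and 0.148 without siCtrl replicates 1, 2 and 3.

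**Figure D3:**
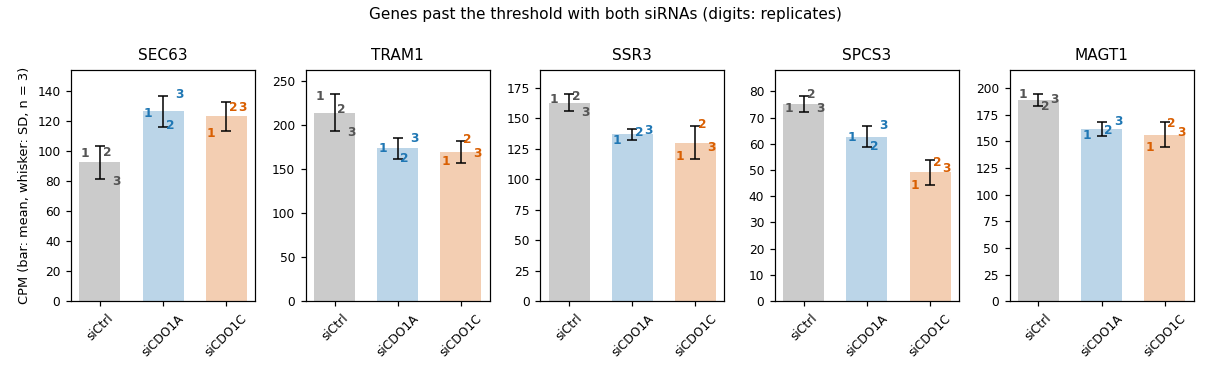
CPM (vertical axis, from 0) of the 5 genes that passed with both siRNAs, by siRNA (bars, mean; whiskers, SD, n = 3; digits, the replicates). SEC63 is higher in all 6 libraries with less CDO1, and TRAM1, SSR3, SPCS3 and MAGT1 are lower in all 6, with SPCS3 lowest with siCDO1C.

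The complexes are taken below in the order in which a protein meets them. Levels per length set the scale: in siCtrl, the OST subunit RPN2 had 186 CPM per kilobase of gene length in the table, SRP9 138, DAD1 97.3 and SRP14 93.4. KRTCAP2 (0.444), SRP19 (1.37), SEC61A2 (2.48) and SSR1 (4.62) had the lowest levels per kilobase. The length used was 10517 bases for SRP19 and 11349 for SSR1, against 1728 for SRP9, so this ranking rests in part on gene length. SSR1 was at a mean of 52.4 CPM with siCtrl. The summed level of all 35 genes was 4950 ± 17.2 CPM with siCtrl, 4769 ± 55.9 with siCDO1A and 4527 ± 270 with siCDO1C (SD, n = 3), with 4833 CPM in siCDO1C replicate 2 and 4323 and 4426 in replicates 1 and 3. The sum in siCDO1C replicate 2 was thus closer to that of the siCDO1A libraries (4708 to 4818) than to those of its own group.

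**Figure D4:**
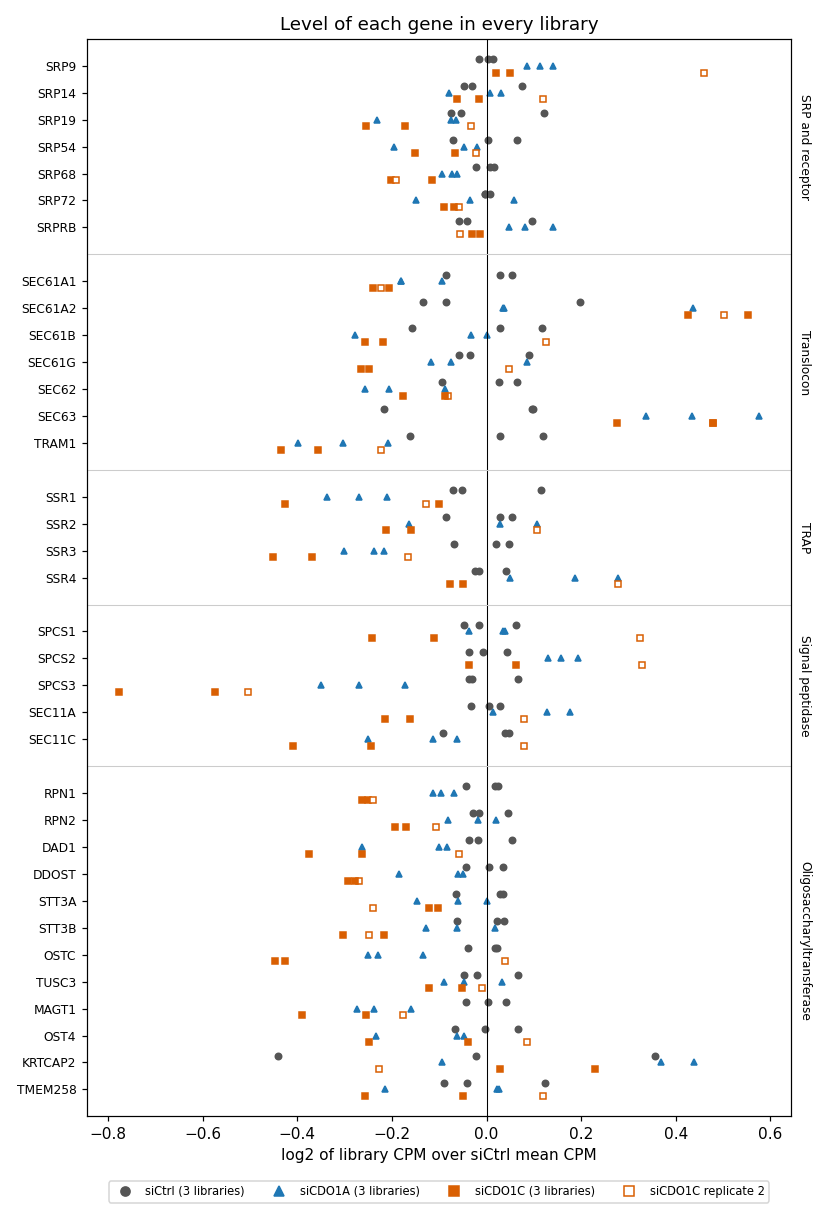
Level of each of the 35 genes in each of the 9 libraries, as the log2 of the CPM over the mean CPM of siCtrl (horizontal axis), with genes grouped by complex and siCDO1C replicate 2 as an open square. All siRNA libraries of SEC63 lie to the right of the siCtrl libraries and those of SPCS3 to the left, and for SPCS1, OSTC and SRP9 the open square lies far to the right of the other siCDO1C libraries.

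None of the 7 SRP and receptor genes passed the test with either siRNA. By edgeR 1 gene had an unadjusted p under 0.05 with each siRNA, and DESeq2 called 0. With siCDO1A it was SRP9, which with SRP14 forms the part of SRP that slows translation, with a log2 fold change of 0.11 (95% interval 0.01 to 0.22, edgeR adjusted p = 0.147). With siCDO1C it was SRP68, a subunit that binds the SRP RNA as a dimer with SRP72, at -0.18 (-0.33 to -0.03, edgeR adjusted p = 0.167), and it passed without siCDO1C replicate 2 (0.0477). SRP54, the GTPase that binds the signal sequence, was at -0.08 and -0.09, SRP14 at -0.01 and 0.01, SRP72 at -0.04 and -0.08, SRP19 at -0.12 and -0.16, and SRPRB, the membrane-anchored receptor subunit, at 0.09 and -0.04 with siCDO1A and siCDO1C. The summed SRP level was 855 ± 9.78 CPM with siCtrl, 859 ± 0.928 with siCDO1A and 860 ± 61.5 with siCDO1C (SD, n = 3). With siCDO1C it was 821, 931 and 828 CPM, so that the libraries other than replicate 2, with a mean of 824 CPM, lay below all siCtrl libraries (845 to 865). SRP19, at 12.1 to 15.7 CPM, overlaps REEP5 on the opposite strand, which was at 238 CPM in siCtrl, and whether strand was used in counting is not given in the sources used here.

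Of the 7 translocon genes, 3 passed with each siRNA (1 higher and 2 lower with siCDO1A, 2 higher and 1 lower with siCDO1C), 2 of them the SEC63 and TRAM1 described above. SEC62, the partner of SEC63 in the transport of short and weakly recognised chains, fell with siCDO1A, the opposite direction to SEC63. It was at 241, 235 and 216 CPM with siCtrl, at 200, 193 and 217 with siCDO1A and at 204, 218 and 217 with siCDO1C. The third siCDO1A library lay within the siCtrl range, and the log2 fold change was -0.18 ± 0.0596 (SE, edgeR adjusted p = 0.0412) with siCDO1A and -0.12 ± 0.0719 (SE, edgeR adjusted p = 0.394) with siCDO1C. With the replicate block the edgeR adjusted p with siCDO1A was 0.145, the batches gave -0.27, -0.29 and 0.00, and it was 0.139 and 0.203 without siCDO1A replicates 1 and 2 and 0.202 and 0.159 without siCtrl replicates 1 and 2. SEC62 is among the genes with the UPR element core shown above.

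SEC61A2 encodes the less used form of the channel's pore subunit. It was at 9.12, 11.1 and 8.82 CPM with siCtrl, at 9.93, 13.1 and 9.91 with siCDO1A and at 13, 13.7 and 14.2 with siCDO1C. All siCDO1C libraries lay above siCtrl, whereas siCDO1A overlapped it. The log2 fold change was 0.49 ± 0.132 with siCDO1C (SE, edgeR adjusted p = 0.0464) and 0.19 ± 0.143 with siCDO1A (SE, edgeR adjusted p = 0.419). The siCDO1C result is near the threshold: the adjusted p was 0.0523 by DESeq2, 0.0541 with the replicate block, 0.0966 and 0.108 without siCDO1C replicates 1 and 3, and 0.182, 0.0613 and 0.199 without siCtrl replicates 1, 2 and 3. SEC61A2 overlaps NUDT5 on the opposite strand, at 41.7 CPM in siCtrl.

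SEC61A1, the main pore subunit, was at 296, 320 and 326 CPM with siCtrl, at 294, 277 and 277 with siCDO1A and at 266, 269 and 272 with siCDO1C. Both siRNA groups lay below siCtrl, with log2 fold changes of -0.15 ± 0.0539 (SE, edgeR adjusted p = 0.0606) and -0.23 ± 0.069 (SE, edgeR adjusted p = 0.0699), just above the threshold. It passed with siCDO1A without siCDO1A replicate 3 (edgeR adjusted p = 0.036) and with siCDO1C without siCDO1C replicate 2 (0.0026). With the gene length trend removed SEC61A1 passed with both siRNAs (0.0204 with siCDO1A and 0.0303 with siCDO1C). In 1 fit of all 9 libraries it passed with siCDO1C (0.0476) and not with siCDO1A (0.165). The small channel subunits SEC61B (log2 fold change -0.10 and -0.12) and SEC61G (-0.03 and -0.16) did not pass with either siRNA, and SEC61G passed with siCDO1C without replicate 2 (0.0282). The summed translocon level was 950 ± 33.6 CPM with siCtrl, 882 ± 27.2 with siCDO1A and 870 ± 39.7 with siCDO1C (SD, n = 3), or 851 without siCDO1C replicate 2.

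In the TRAP complex, which helps some chains to enter the channel, the 4 subunits had values on both sides of 0. Beside SSR3, SSR1 passed with siCDO1A, at 49.9, 56.8 and 50.6 CPM with siCtrl, 43.5, 41.5 and 45.3 with siCDO1A and 39, 48 and 48.9 with siCDO1C. SSR1, the alpha subunit, was below siCtrl in all 6 libraries. Its log2 fold change was -0.27 ± 0.078 with siCDO1A (SE, edgeR adjusted p = 0.0223) and -0.22 ± 0.0988 with siCDO1C (SE, edgeR adjusted p = 0.246). With siCDO1A the edgeR adjusted p was 0.0816 with the replicate block, where the batches gave -0.20, -0.45 and -0.16, and it was 0.0647, 0.108 and 0.152 without siCDO1A replicate 1, siCDO1A replicate 2 and siCtrl replicate 2. With siCDO1C it was 0.0464 without replicate 2.

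SSR4, the delta subunit and another gene with the UPR element core, had the opposite sign. Its level was 172, 171 and 179 CPM with siCtrl, 211, 198 and 180 with siCDO1A and 165, 211 and 168 with siCDO1C. All siCDO1A libraries lay above siCtrl, but the log2 fold change of 0.17 ± 0.0602 did not pass (SE, edgeR adjusted p = 0.058). It passed without siCDO1A replicate 3 (0.000788), with the gene length trend removed (0.0456) and without the filter on low counts. The beta subunit SSR2 was at -0.01 and -0.09 and passed only with siCDO1C and without its replicate 2 (edgeR adjusted p = 0.0432). The summed TRAP level was 492 ± 8.15 CPM with siCtrl, 479 ± 18.6 with siCDO1A and 454 ± 54.6 with siCDO1C (SD, n = 3), or 423 without siCDO1C replicate 2. Of the 4 genes with the core, in the main fit SSR3 fell with both siRNAs, SEC62 passed with siCDO1A alone, and SSR4 and SRP19 did not pass with either.

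In signal peptidase, SPCS3 was the only one of the 5 genes to pass with either siRNA. SPCS1 and SPCS2, the other accessory subunits, did not pass. SPCS2 was at 146, 141 and 138 CPM with siCtrl, 158, 155 and 162 with siCDO1A and 138, 178 and 148 with siCDO1C. The siCDO1A libraries of SPCS2 all lay above siCtrl, with a log2 fold change of 0.16 ± 0.0554 (SE, edgeR adjusted p = 0.0581), and the siCDO1C value was 0.12 ± 0.0869 (SE, edgeR adjusted p = 0.528). SPCS1 was at 0.01 and 0.00, with 103 CPM in siCDO1C replicate 2 and 69.5 and 76.2 CPM in replicates 1 and 3. The catalytic subunit SEC11A was at 186, 191 and 194 CPM with siCtrl, 215, 208 and 192 with siCDO1A and 170, 201 and 164 with siCDO1C. Its alternative SEC11C was at 66.2, 72.9 and 72.5, at 67.5, 65.2 and 59.3, and at 59.5, 74.5 and 53.1 CPM. Neither passed over all libraries, but both passed as lower with siCDO1C without its replicate 2 (edgeR adjusted p = 0.0134 and 0.00275), and SEC11A passed as higher with siCDO1A without its replicate 3 (0.0269). Summed over the 5 signal peptidase genes, the level was 560 ± 3.18 CPM with siCtrl and 573 ± 9.07 with siCDO1A (SD, n = 3). It was 527 ± 71.1 CPM with siCDO1C (SD, n = 3), or 486 without siCDO1C replicate 2.

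The OST genes were the most uniform in direction. Of the 12 genes, 11 had a log2 fold change below 0 with each siRNA, the exception being KRTCAP2, which was at only 1.25 to 2.3 CPM. With siCDO1A 2 genes fell (OSTC and MAGT1) and with siCDO1C 4 did (RPN1, DDOST, STT3B and MAGT1), and the median log2 fold change was -0.08 and -0.20, the latter -0.23 without siCDO1C replicate 2. The summed OST level was 2093 ± 14.5 CPM with siCtrl, 1976 ± 34.9 with siCDO1A and 1816 ± 47.6 with siCDO1C (SD, n = 3). Without siCDO1C replicate 2 the siCDO1C mean was 1790 CPM. In contrast to the signal peptidase sum (481, 609 and 492 CPM), the OST sum with siCDO1C did not hinge on replicate 2, with 1780, 1870 and 1798 CPM in the 3 libraries, all below the 6 other libraries (1936 to 2109).

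The subunits that passed as lower with siCDO1C belong to the core shared by all OST forms and to the STT3B form. STT3A, of the other catalytic form, was also below 0 without passing (-0.16, edgeR adjusted p = 0.243). A difference between the forms was thus not shown. RPN1, which holds nascent chains near the active site, was at 275, 287 and 288 CPM with siCtrl, 270, 262 and 265 with siCDO1A and 238, 240 and 236 with siCDO1C. DDOST, a core subunit, was at 241, 233 and 246, at 232, 230 and 211, and at 196, 199 and 198 CPM. STT3B, the catalytic subunit that glycosylates sites missed during entry, was at 281, 284 and 265, at 265, 253 and 280, and at 224, 233 and 238 CPM. For these 3 genes the siCDO1C libraries lay close together and below both other groups. The log2 fold changes with siCDO1C were -0.26 ± 0.0667 for RPN1, -0.29 ± 0.0671 for DDOST and -0.26 ± 0.0689 for STT3B (SE, edgeR adjusted p = 0.0377, 0.0228 and 0.0405). With siCDO1A they were -0.10, -0.10 and -0.06 (edgeR adjusted p = 0.232, 0.261 and 0.544).

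With the replicate block the edgeR adjusted p with siCDO1C was 0.0915 for RPN1, 0.0592 for DDOST and 0.0897 for STT3B, although the 3 batches gave -0.21 to -0.29 for RPN1, -0.23 to -0.32 for DDOST and -0.16 to -0.33 for STT3B. The 3 genes also passed without siCDO1C replicate 2 (adjusted p = 0.000406 for RPN1, 0.000192 for DDOST and 0.000579 for STT3B). Without siCDO1C replicate 1 or 3 the adjusted p was 0.133 and 0.0984 for RPN1, 0.101 and 0.062 for DDOST and 0.166 and 0.0691 for STT3B. Without siCtrl replicate 1, 2 or 3 it was 0.144, 0.201 and 0.149 for RPN1, 0.145, 0.103 and 0.116 for DDOST and 0.223, 0.219 and 0.0917 for STT3B. PINK1-AS, a non-coding gene at 4.46 CPM in siCtrl, overlaps DDOST on the same strand.

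OSTC, which links the STT3A form of OST to the translocon, was at 80.7, 80.9 and 77.6 CPM with siCtrl, 72.6, 68 and 67 with siCDO1A and 58.5, 81.9 and 59.3 with siCDO1C. With siCDO1A it fell by 0.20 ± 0.0651 on the log2 scale (SE, edgeR adjusted p = 0.0376), with no overlap. With siCDO1C replicates 1 and 3 lay below all other libraries and replicate 2 above all of them, so that the log2 fold change was -0.27 ± 0.11 (SE, edgeR adjusted p = 0.197) with replicate 2 and the adjusted p was 3.0e-05 without it. The siCDO1A result had an edgeR adjusted p of 0.136 with the replicate block, where the batches gave -0.15, -0.25 and -0.21, and of 0.0509, 0.127, 0.135 and 0.138 without siCDO1A replicate 1, siCDO1A replicate 2, siCtrl replicate 1 and siCtrl replicate 2, and OSTC did not pass with siCDO1A without the filter on low counts.

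The other OST genes did not pass with either siRNA. RPN2 was at -0.03 and -0.16, DAD1 at -0.15 and -0.23, STT3A, the catalytic subunit that works during entry, at -0.07 and -0.16, TUSC3 at -0.04 and -0.07, and the small subunits OST4 at -0.11 and -0.07 and TMEM258 at -0.06 and -0.06 with siCDO1A and siCDO1C. RPN2 and DAD1 passed with siCDO1C without its replicate 2 (edgeR adjusted p = 0.00677 and 0.00163). KRTCAP2 was at 0.22 (95% interval -0.38 to 0.83) and 0.00 (-0.68 to 0.68), so that a difference of some size was not detectable at its low counts. It overlaps AL713999.1, a protein-coding gene at 0 CPM in siCtrl, on the same strand. Whether reads in the overlap were left uncounted, which would lower the KRTCAP2 level, was not tested. STT3A overlaps CHEK1 on the same strand (67.9 CPM in siCtrl), and TMEM258 and OST4 overlap FEN1 (66.1 CPM) and AGBL5 (41.9 CPM) on the opposite strand, so that their counts are uncertain where reads of the neighbours were shared. The same holds for genes outside OST. SSR1 overlaps the pseudogene AL139095.2 (6.5 CPM in siCtrl) on the same strand. On the opposite strand lie MGLL (151 CPM) and RUVBL1 (89.7 CPM) for SEC61A1, and IDH3G (36.9 CPM) for SSR4. NEK4 (69.9 CPM) and GLT8D1 (55.4 CPM) lie opposite SPCS1, and RAB6B (50.5 CPM) opposite SRPRB.

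Several of these complexes take 1 of 2 alternative subunits, and their ratio within a library needs no scaling between libraries. The log2 ratio of SEC61A1 to SEC61A2 counts was 5.02, 4.84 and 5.20 with siCtrl, 4.88, 4.39 and 4.80 with siCDO1A and 4.35, 4.29 and 4.25 with siCDO1C. It was lower by 0.72 with siCDO1C in place of siCtrl, with no overlap (difference -0.72, exact permutation test, two-sided, p = 0.1), and the ratio of counts went from 32.4 to 19.7. With siCDO1A the groups overlapped (difference -0.33, exact permutation test p = 0.2). Per length, SEC61A1 counts were 27 times those of SEC61A2 in siCtrl.

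MAGT1 and TUSC3, a closely related oxidoreductase subunit, can take the same place in OST. TUSC3 was at 93.9, 92 and 99.6 CPM with siCtrl, 97.3, 92 and 89.4 with siCDO1A and 91.8, 94.5 and 87.4 with siCDO1C. The log2 ratio of MAGT1 to TUSC3 was 1.05, 0.99 and 0.93 with siCtrl, 0.68, 0.80 and 0.92 with siCDO1A and 0.65, 0.82 and 0.85 with siCDO1C. It was lower with both siRNAs, without overlap though narrowly so with siCDO1A (differences -0.19 and -0.21, exact permutation test, two-sided, p = 0.1 each).

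The log2 ratio of SEC11A to SEC11C was 1.49, 1.39 and 1.42 with siCtrl, 1.67, 1.67 and 1.69 with siCDO1A and 1.51, 1.43 and 1.63 with siCDO1C. It was higher with siCDO1A without overlap (difference 0.25, exact permutation test, two-sided, p = 0.1) and overlapped with siCDO1C (0.09, p = 0.2). STT3A, at 253, 252 and 236 CPM with siCtrl, 237, 223 and 247 with siCDO1A and 227, 209 and 230 with siCDO1C, kept a log2 ratio to STT3B of -0.15, -0.17 and -0.17 with siCtrl and -0.16, -0.18 and -0.18 with siCDO1A (difference -0.01, exact permutation test p = 0.3). With siCDO1C the ratio was 0.02, -0.16 and -0.05 (difference 0.10, p = 0.2, exact permutation test). Over the 12 tests of the 4 pairs and 3 comparisons the smallest Benjamini-Hochberg adjusted p was 0.171, and 3 against 3 libraries cannot go below 0.1.

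**Figure D5:**
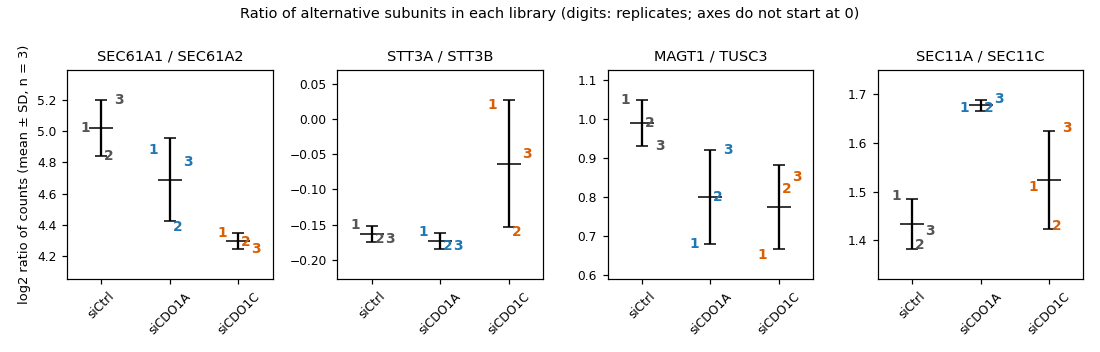
Log2 ratio of counts of 4 pairs of alternative subunits (vertical axes, not from 0) in each library, by siRNA (digits, replicates; bars, mean ± SD, n = 3). The SEC61A1/SEC61A2 ratio is lowest with siCDO1C, the MAGT1/TUSC3 ratio lies below siCtrl with both siRNAs, the SEC11A/SEC11C ratio is highest with siCDO1A, and the STT3A/STT3B ratio of siCDO1A lies on that of siCtrl.

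Set directly against each other, no gene of the 35 passed an adjusted p of 0.05 between the siRNAs. By edgeR 0 passed, where 0.444% of all genes tested did, 6 had an unadjusted p under 0.05 and DESeq2 called 0. The 6 were SPCS3, SEC61A2, SEC11A, RPN1, DDOST and STT3B, and all but SEC61A2 were lower with siCDO1C. The smallest adjusted p was that of SPCS3, which was lower by 0.36 on the log2 scale with siCDO1C than with siCDO1A (difference -0.36, 95% interval -0.56 to -0.16, edgeR adjusted p = 0.167). For SEC63 the difference was -0.04 (-0.23 to 0.14), for TRAM1 -0.04 (-0.22 to 0.14), for SSR3 -0.08 (-0.26 to 0.10) and for MAGT1 -0.05 (-0.23 to 0.12). Without siCDO1C replicate 2, SPCS3 and SEC11A passed as lower with siCDO1C. A gene that passed with 1 siRNA and not with the other, as SEC62, SSR1 and OSTC with siCDO1A or RPN1, DDOST and STT3B with siCDO1C, was thus not shown to differ between the siRNAs.

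Among 36 other genes of targeting and insertion, a list also drawn up with earlier results of these data known, 35 were tested (TRAM1L1 had too few counts). With siCDO1A 6 passed, 4 higher (EMC9, CAMLG, SGTA and NCLN) and 2 lower (TRAM2 and SERP1), and with siCDO1C 3 did, 1 higher (SGTA) and 2 lower (SERP1 and MLEC). These are 17.1% and 8.57% of those tested, where 14.8% and 4.77% of all genes passed, and their median log2 fold change was 0.02 and 0.01. Without siCDO1C replicate 2 the median with siCDO1C was -0.05, and WRB, BAG6 and CCDC47 also passed (edgeR adjusted p = 0.018, 0.00635 and 0.0323). The number moved with single libraries, with siCDO1A from 1 without siCtrl replicate 2, 2 without siCDO1A replicate 2 and 3 without siCDO1A replicate 1 (8.31%, 8.59% and 9.12% of all genes) to 11 without siCDO1A replicate 3 (22.2%). With siCDO1C it moved from 1 without siCtrl replicate 1, siCtrl replicate 2 or siCDO1C replicate 1 (1.79%, 1.75% and 2.37% of all genes) and 2 without siCtrl replicate 3 or siCDO1C replicate 3 (1.69% and 3.51%) to 6 without siCDO1C replicate 2 (13.3%). With the replicate block 3 passed with siCDO1A (TRAM2, EMC9 and SGTA) and 3 with siCDO1C, each 8.57% of the list, where 8.73% and 4.08% of all genes passed.

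The members of this outside list that passed with both siRNAs were SGTA and SERP1. SGTA, a chaperone that hands tail-anchored proteins to their own insertion route, was at 107, 95.5 and 110 CPM with siCtrl, 146, 149 and 130 with siCDO1A and 137, 139 and 129 with siCDO1C. It rose without overlap, by 0.44 ± 0.0673 (log2, SE, edgeR adjusted p = 0.000111) with siCDO1A and 0.37 ± 0.0761 (SE, edgeR adjusted p = 0.0109) with siCDO1C, the latter not passing without siCDO1C replicate 1 (0.0504), siCtrl replicate 1 (0.0532) or siCtrl replicate 2 (0.118). SERP1, a small protein that binds the SEC61 channel, was at 265, 280 and 273 CPM with siCtrl, 243, 231 and 236 with siCDO1A and 206, 242 and 207 with siCDO1C. It fell without overlap, by 0.20 ± 0.0518 (log2, SE, edgeR adjusted p = 0.0107) and 0.33 ± 0.0766 (SE, edgeR adjusted p = 0.0236). For siCDO1A the adjusted p was 0.0777 with the replicate block, 0.062 without siCDO1A replicate 2 and 0.0774 without siCtrl replicate 2. For siCDO1C it was 0.134 and 0.0801 without siCDO1C replicates 1 and 3 and 0.108, 0.151 and 0.107 without siCtrl replicates 1, 2 and 3.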

How the data were processed

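Poly(A) RNA of VCaP cells was measured by RNA-seq in 3 libraries per siRNA. The authors deposited raw counts per gene, 1 column a library, with CASAVA, HISAT2 2.0.5 and hg38 named in the submitters' processing notes and featureCounts in the study's methods. The libraries were directional, but how the counting treated strand and reads with several matches is not given in the sources used here. The table holds 3 further columns that match no sample, which were not used. All 35 genes overlapped the RefSeq gene of the same symbol in GRCh38.

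Genes were kept with filterByExpr of edgeR (minimum count 10 over the 9 libraries), which left 15555 of 58735, and normalized with TMM. Each comparison was fitted on its 6 libraries with the quasi-likelihood test of edgeR 4.0.16 (robust, R 4.3.3), with Benjamini-Hochberg adjustment over all genes tested and a threshold of 0.05. The fitting code was tested on simulated data, which set neither the method nor the threshold. Gene ratios within a library used counts plus 0.5 and exact permutation tests. The depth of each library (12061295 to 16073698 counts) limits precision for genes of a few CPM. Alternatives were DESeq2 1.42.0, other size factors, filters, threshold and samples, the replicate block, a loess offset for gene length, and leaving out each library.

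The labels give the replicate numbers as a shared batch, and they were used as pairs only in the differences within batches and in the replicate block. The main fits did not use them. The deviations of same-numbered libraries from their group means, over 11337 genes, had Pearson's r from -0.384 to 0.386, so the block was not the main fit. The gene members and lists were chosen with earlier results of these data known. All genes that passed in any comparison, and both genes of each pair of alternative subunits, are given with their library values, and the others by their fold changes. Outside the 35 genes, those that passed with both siRNAs are given.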

Additional observations from a re-analysis of the deposited data

How the results depend on the processing

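Replacing edgeR by DESeq2, TMM by DESeq2's size factors, or the filter on low counts by none or by 10 counts in every library left 8 genes with siCDO1A, 8 or 9 with siCDO1C, 0 between the siRNAs and the same 5 genes with both. Of all genes, 7.96% to 16.5% (siCDO1A), 3.44% to 5.43% (siCDO1C), 0.418% to 0.669% (between the siRNAs) and 2.44% to 4.14% (both) passed in these settings. With the replicate block the counts were 3 (siCDO1A), 4 (siCDO1C) and 3 (both), where 8.73%, 4.08% and 2.67% of all genes passed, and 3 outside genes with siCDO1A. Without the filter SSR4 passed with siCDO1A in place of OSTC. With 1 fit of all 9 libraries they were 3 (siCDO1A, 8.8% of all genes), 10 (siCDO1C, 6.35%) and 3 (both, 3.79%), the 3 each time SEC63, TRAM1 and SSR3, and 2 outside genes with siCDO1A. At an adjusted p of 0.01 they were 4 (siCDO1A), 1 (siCDO1C, SPCS3) and 0 (both), where 7.12%, 1.81% and 1.31% of all genes passed and DESeq2 was not run at that threshold, and 1 outside gene with each siRNA. With the gene length trend removed they were 11, 10 and 6 (16.8%, 7.56% and 5.47% of all genes), and with the block in addition 6, 11 and 6 (11.4%, 7.98% and 4.79%), with 1 gene (SPCS3) between the siRNAs. Leaving out 1 library at a time gave 3 to 11 (siCDO1A), 1 to 19 (siCDO1C), 0 to 2 (between the siRNAs) and 0 to 7 (both), and 1 to 11 and 1 to 6 outside genes. The share of all genes that passed then moved as well, from 8.31% to 22.2% (siCDO1A), 1.69% to 13.3% (siCDO1C) and 0.116% to 2.87% (between the siRNAs). With both siRNAs it was at least 1.34%. The cause of these differences was not tested. The CDO1 reduction stayed between 80.5% and 91.9%, and the subunit ratios moved by less than the spread between replicates. No fold change of a gene that passed with either siRNA changed sign under these alternatives. The replicate block changed no other call than those given above. Among the 35 genes, KRTCAP2 had the fewest counts.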

Other observations

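MLEC, chosen here after its values were seen, encodes malectin, an ER lectin that binds newly transferred glucosylated glycans and associates with ribophorin I (RPN1). It was at 503, 540 and 543 CPM with siCtrl, at 490, 484 and 480 with siCDO1A and at 406, 376 and 415 with siCDO1C, so that the 3 groups did not overlap. It fell by 0.41 ± 0.0716 on the log2 scale with siCDO1C (SE, edgeR adjusted p = 0.00349) and passed without any 1 library (adjusted p at most 0.0425). Unlike for most of the genes above, siCDO1C replicate 2 was the lowest library of its group. With siCDO1A the log2 fold change of MLEC was -0.12 ± 0.0496 (SE, edgeR adjusted p = 0.0992).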
